A study of Mus musculus with 12 samples.

Results

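The regions described here were autosomal YY1 binding regions that lay close together on the chromosome in Lin− bone marrow cells, the fraction rich in blood stem and progenitor cells that stays behind when lineage-positive cells are depleted. A consensus region was a stretch of genome where at least 2 of the 4 YY1 ChIP-seq libraries had a peak, with peaks sharing at least 1 bp merged. A consensus region on chromosomes 1 to 19 was called dense when its midpoint lay within 20 kb of the midpoints of at least 3 other consensus regions. Of 14168 consensus regions in all and 13801 on autosomes, 1300 were dense (9.42% of the autosomal regions), and 12501 were not. Dense regions whose neighbouring midpoints were closer than 20 kb were joined, which gave 362 clusters. The dense regions were chosen by the positions of the peaks in all 4 libraries, so their crowding is a description and not a finding. The number rests on the deeper libraries: without WT replicate 2 the rule gave 421 dense regions in 135 clusters, and without XistΔ/Δ replicate 2 it gave 400 in 131.

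The libraries came from 3-month-old female mice of a 129Sv4/Jae x B6 background, 2 from wild-type (WT) mice and 2 from XistΔ/Δ mice. In the XistΔ/Δ mice, Xist was deleted by a Cre recombinase under the control of sequences of the blood gene Vav1 (Vav-iCre). Xist is the noncoding RNA behind X chromosome inactivation in females. The labels do not state whether the WT mice carried the transgene, and although the study calls its ChIP-seq replicates biological, the sources used here do not say that the 2 libraries of a genotype came from separate mice, so p-values measure the spread between libraries only. The series holds 12 samples, of which the 8 histone mark samples were not analysed here.

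YY1 carries zinc fingers with which it binds DNA, mostly at active promoters and enhancers, and it can bring them together by pairing with another YY1 molecule. Its binding letters contain the core ATGGC. Genes with related tasks often lie side by side in mammals, such as the histone genes that are copied out during DNA replication, the Hox genes and the transfer RNA (tRNA) genes. Stretches of repeated sequence also gather in tandem, and reads from such copies are hard to place.

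To show what YY1 letters look like in these clusters, the letters AANATGGC (either strand, N for any base) are given in capitals within 60 bases of the mm10 (GRCm38) reference, on the strand that reads AANATGGC. Each site was the match nearest to the middle of the dense region that had the highest mean rank among those with a match in its cluster. A match is a string of letters and was not tested as a binding site.
Hist1 cluster, chr13:23585062-23585121, plus strand, beside Hist1h4d: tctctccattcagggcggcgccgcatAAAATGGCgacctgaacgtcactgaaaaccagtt
Hist2 cluster, chr3:96268665-96268724, plus strand, at Hist2h3b: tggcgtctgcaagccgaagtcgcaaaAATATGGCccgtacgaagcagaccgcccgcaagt
Per1 cluster, chr11:69016481-69016540, minus strand, within Ctc1: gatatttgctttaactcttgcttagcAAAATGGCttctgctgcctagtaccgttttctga
Spi1 cluster, chr2:91097268-91097327, plus strand, within Spi1: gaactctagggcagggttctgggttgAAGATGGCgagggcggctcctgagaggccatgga
Slc3a2 cluster, chr19:8722815-8722874, plus strand, within Slc3a2: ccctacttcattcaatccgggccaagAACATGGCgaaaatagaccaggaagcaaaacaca
Mcl1 cluster, chr3:95659810-95659869, plus strand, within Mcl1: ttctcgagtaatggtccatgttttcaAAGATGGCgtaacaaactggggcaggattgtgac
Ccl28 cluster, chr13:119632802-119632861, plus strand, within Ccl28: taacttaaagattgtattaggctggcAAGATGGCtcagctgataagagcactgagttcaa
Chromosome 9 repeat cluster, chr9:3001895-3001954, minus strand, at Gm10722: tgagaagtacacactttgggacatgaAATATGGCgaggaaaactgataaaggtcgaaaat

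Peaks numbered 9553 in WT replicate 1 but 15933 in WT replicate 2, and 10075 in XistΔ/Δ replicate 1 but 18113 in XistΔ/Δ replicate 2. The deeper library of each genotype was thus replicate 2, with 50.0 M against 24.9 M tags (aligned reads as the peak caller counts them) for WT and 59.5 M against 23.1 M for XistΔ/Δ. The files give no tag count per peak, so the strength of a peak was read only from its width. A width was turned into a percentile among all autosomal consensus regions of its library, with 0 for a region without a peak. As a description, 6 of 8 progenitor markers, 2 of 6 mature lineage markers and 0 of 3 markers of other tissues had a transcription start site (TSS) within 3 kb of an autosomal YY1 region. The share over all protein-coding genes was 48.3%. A YY1 peak does not measure expression and the markers are few, so these counts do not check the identity of the cells. Among these markers, Spi1 (progenitor) and Itgam (mature myeloid) lay near a dense region.

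**Figure D1:**
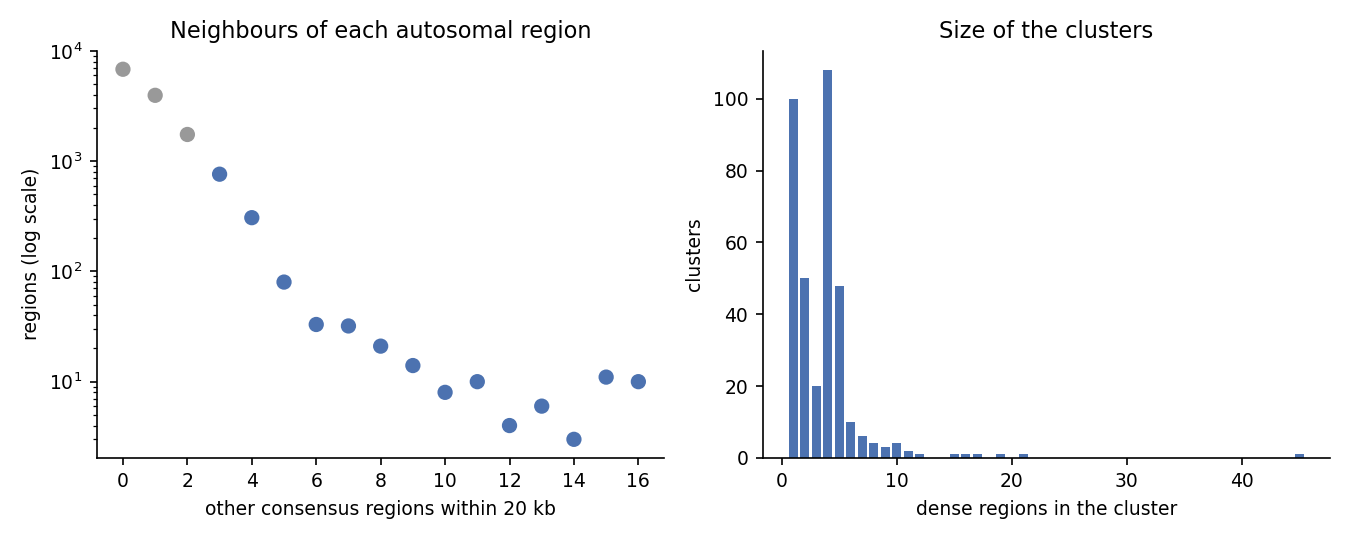
Crowding of autosomal YY1 consensus regions. Left, the number of regions (log y axis) with each number of other regions within 20 kb, with the 1300 dense regions, those with at least 3 neighbours, in blue. Right, the number of clusters by how many dense regions they hold, from 1 to 45.

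Of the dense regions, 761 had exactly 3 neighbours, and the most crowded had 16. Most clusters were small. Of the 362 clusters, 156 held 4 or 5 dense regions and 36 held 6 or more, so that 192 clusters of at least 4 dense regions contained 1040 of the 1300. A further 100 clusters held a single dense region, whose neighbours had too few neighbours of their own. The clusters of at least 4 spanned a median of 20033 bp, and the longest spanned 134562 bp. At the limit of the rule, the last regions inside had their third-nearest neighbour at 19966 bp (near Nr4a1) and 19989 bp (near Neurl3), and the first outside at 20009 bp (Ccdc142) and 20011 bp (Pptc7 and Tctn1). There were 193 dense regions with that distance between 18 and 20 kb, and 190 other regions with it up to 22 kb.

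Dense regions were found less often in the shallower libraries than other autosomal regions were. A peak was present at 653 of the 1300 dense regions in WT replicate 1 (50.2%, 95% Wilson interval 47.5 to 52.9%) and at 1262 in WT replicate 2 (97.1%, 96.0 to 97.9%). The XistΔ/Δ libraries had a peak at 736 (56.6%, 53.9 to 59.3%) in replicate 1 and at 1274 (98.0%, 97.1 to 98.6%) in replicate 2. These intervals cover counting error only. At the other autosomal regions the shares were 64.9% and 98.0% in the WT libraries and 67.8% and 99.0% in XistΔ/Δ. Thus the dense and the other regions differed by 10 points or more only in the replicate 1 libraries. Any region without a replicate 1 peak needed both replicate 2 peaks to be counted, which keeps the replicate 2 shares high in both sorts. All 4 libraries had a peak at 524 dense regions (40.3%), against 56.5% of the other regions, and 450 dense regions (34.6%) were called in the replicate 2 libraries alone, against 24.1%. Within a library, dense regions also carried narrower peaks, with medians of 799, 909, 756 and 915 bp in WT replicates 1 and 2 and XistΔ/Δ replicates 1 and 2, against 916, 1047, 791 and 1047 bp at the other regions. Because the rule counts separate regions, it can favour narrow ones, so this difference in width is a description only.

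**Figure D2:**
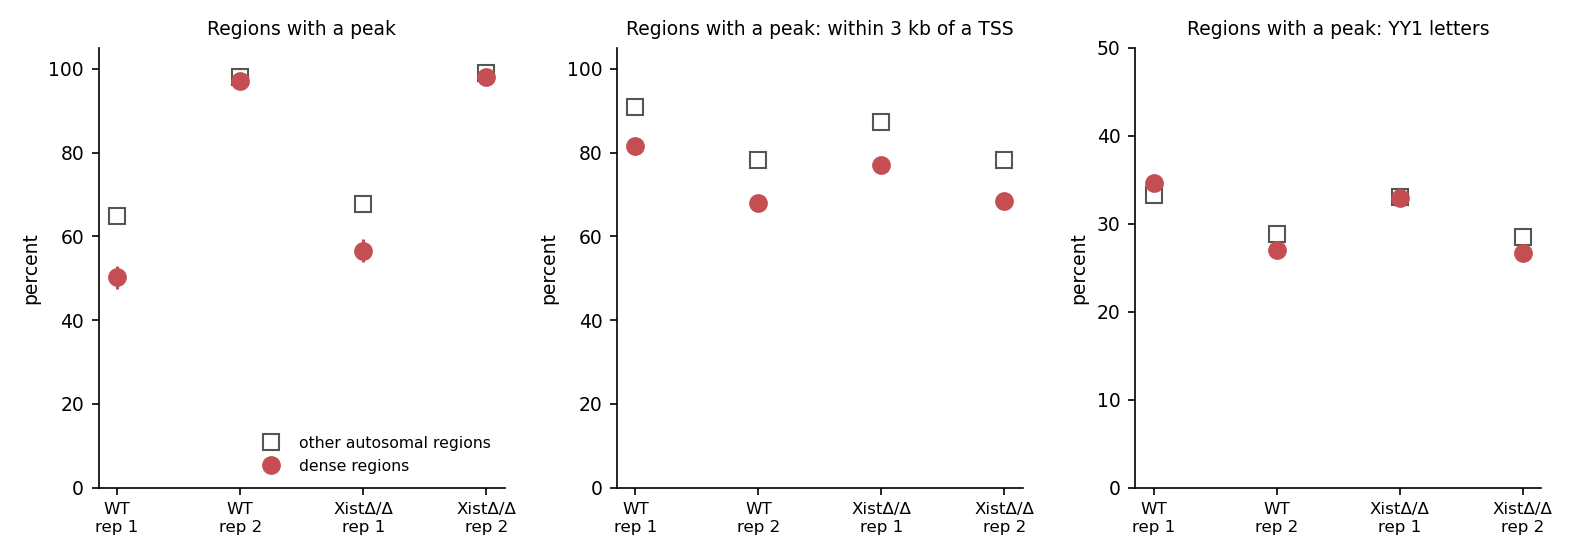
Dense regions (filled circles) and other autosomal YY1 regions (open squares) in each library, in percent. Left, regions with a peak, with 95% Wilson intervals on the dense regions; middle, the share of those with a peak that lay within 3 kb of a TSS; right, the share of those with a peak that held AANATGGC. The dense regions lay below the others in all 4 libraries in the left and middle panels.

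Dense regions were less often at promoters. Among dense regions with a peak, 81.5% in WT replicate 1, 68.1% in WT replicate 2, 76.9% in XistΔ/Δ replicate 1 and 68.5% in XistΔ/Δ replicate 2 were TSS-proximal (within 3 kb of a TSS of any GENCODE M21 transcript). Among the other regions the shares were 90.8%, 78.3%, 87.4% and 78.2%. The dense regions were lower in 4 of 4 libraries, with a mean difference of -9.92 percentage points (SD 0.523) and a two-sided exact sign-flip permutation p of 0.125 over the 4 libraries, the smallest that 4 libraries can give. A region has the same TSS position in every library, and the libraries share many regions. The 4 differences are therefore not independent, and neither their SD nor this p-value measures replication. The mean difference was -17.5 points with a limit of 1 kb from the TSS. Over all dense regions, 881 (67.8%) were TSS-proximal and 419 were TSS-distal.

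The surroundings of the dense regions also differed from those of the other regions, given here as a description because regions of a cluster are not independent. Dense regions overlapped an annotated exon in 54.2% of cases against 73.2%, lay in an intron in 20.5% against 13.7%, and were intergenic in 25.4% against 13.1%. The number of protein-coding gene starts within 20 kb had a median of 2 against 1. Of the dense regions, 316 (24.3%) had at least 4 such starts, against 4.14% of the others, while 267 (20.5%) had none, against 21.2%. Dense regions thus took in stretches packed with protein-coding gene starts and stretches without such a start, the latter about as often as other regions did. In the 300 bases around their midpoints, the CpG ratio (observed over expected CpG dinucleotides) had a median of 0.41 against 0.70.

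How often a region was called in every library also depended on its position. TSS-proximal dense regions had a peak in all 4 libraries in 442 of 881 cases (50.2%), against 67.2% of other TSS-proximal regions. TSS-distal dense regions had one in 82 of 419 cases (19.6%), against 18.7% of other TSS-distal regions. The share was thus lower in dense regions near a TSS and similar away from one.

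How the YY1 letters compared between dense and other regions depended on the letters searched. AANATGGC was found in 348 of the 1300 dense regions (26.8%) and in 28.5% of the others. Per library, among regions with a peak, the shares were 34.6%, 27.02%, 32.9% and 26.7% in dense regions and 33.2%, 28.8%, 33.1% and 28.5% in the others, in the order WT replicates 1 and 2 and XistΔ/Δ replicates 1 and 2. The mean difference was -0.604 points (SD 1.53), lower in 3 of 4 libraries, with an exact sign-flip permutation p of 0.375. For the core ATGGC alone the mean difference had the opposite sign, at 1.09 points, while it was -3.41 points for the longer AANATGGCG and -2.44 points for AANATGGC without regions of repeated sequence. Each of these 3 had an exact sign-flip permutation p of 0.125, the smallest that 4 libraries can give. The letters of a region are the same in every library, so the motif p-values do not measure replication either. In 300 bases around the midpoint, which takes out the difference in width, 118 dense regions (9.08%) and 10.7% of the others held the letters. There the gap lay in TSS-distal regions, with 38 of 419 dense (9.07%) against 16.4% of the others, while TSS-proximal regions had 9.08% against 9.05%. Of the 648 protein-coding genes with a TSS within 3 kb of a dense region, 470 matched a gene of the RefSeq promoter table (250 bases before to 50 after the start, GRCm38.p6), and 51 of these (10.9%) held the letters, against 11.5% of genes near any autosomal YY1 region and 6.95% of all genes of the table.

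The largest clusters mostly fell into 2 sorts, those over genes of known function and those over repeated sequence. To tell them apart, the share of all 31-base words of a region that occur more than once on the chromosomes of GRCm38 was used. It had a median of 0.886% in dense regions, and exceeded 20% in 151 of them (11.6%) against 2.296% of other regions. The median share within a cluster exceeded 20% in 8 clusters of at least 4 dense regions, which held 117 dense regions.

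**Figure D3:**
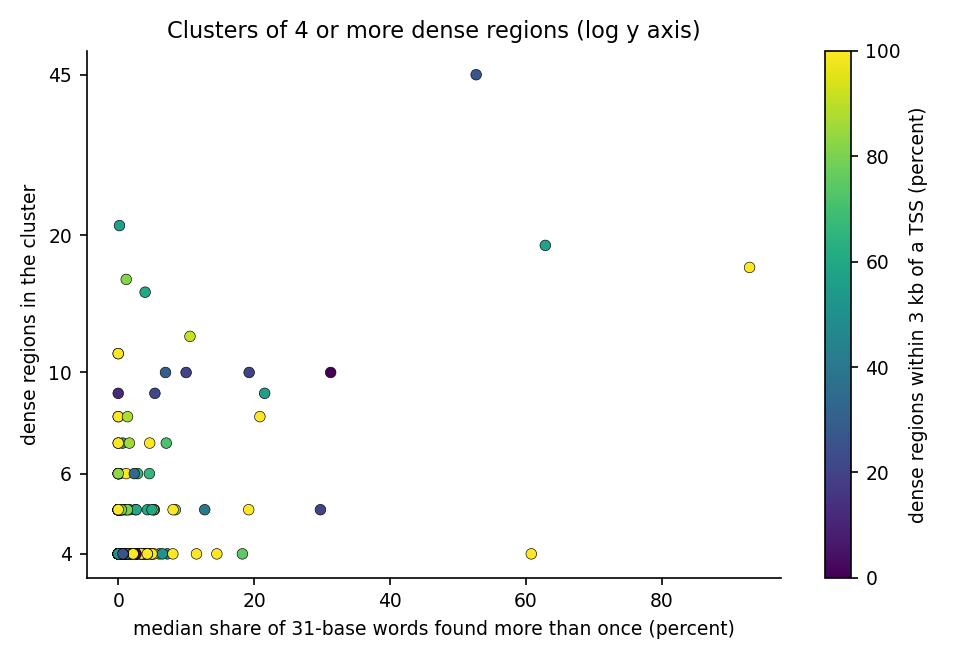
Clusters of at least 4 dense regions by the median share of their 31-base words found more than once in the reference (x axis, percent) and by size (y axis, log scale). Colour gives the percent of dense regions within 3 kb of a TSS. Of the 4 clusters with 17 to 45 dense regions, 3 lie above 50% on the x axis.

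The largest of all lay on chromosome 13 from 12806990 to 12941551, over Gm18262, Gm2544 and Gm18878. It held 45 dense regions, with a median of 52.7% repeated words (lowest 21.7%, highest 74.3%). Peaks were called at 4 and 45 of them in WT replicates 1 and 2 and at 4 and 45 in XistΔ/Δ replicates 1 and 2. The peaks summed to 4436 and 84624 bp in the WT libraries and 5606 and 74256 bp in the XistΔ/Δ libraries. Nearly all of its peaks were thus in the deeper library of each genotype. A region without a replicate 1 peak needed both replicate 2 peaks to be a consensus region. The equal counts in the replicate 2 libraries are therefore largely set by the rule and do not compare the genotypes. Without WT replicate 2 the rule found 6 dense regions there, and without XistΔ/Δ replicate 2 it found 0.

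On chromosome 1 from 85248908 to 85323852, 19 dense regions lay around C130026I21Rik, with a median of 62.9% repeated words. Peaks were called at 7 and 19 of them in WT replicates 1 and 2, and at 2 and 18 in XistΔ/Δ replicates 1 and 2. At the start of chromosome 9, from 3000054 to 3038332, 17 dense regions covered a run of predicted genes from Gm10722 to Gm10715, with a median of 93.0% repeated words. Peaks stood at 11 and 17 of these in the WT libraries and at 9 and 17 in the XistΔ/Δ libraries. Without either replicate 2 library the rule kept 4 dense regions in the chromosome 1 cluster and 11 in the chromosome 9 cluster. A stretch of 37 bases was present in all 17, and had 84 exact copies inside the cluster of 88 on the autosomes. It is shown as the longest sequence found in all of these regions, with no capitals because it holds no AANATGGC:
Shared stretch, chr9:3037977-3038013, plus strand: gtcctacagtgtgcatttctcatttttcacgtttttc

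All 17 regions of the chromosome 9 cluster also held AANATGGC, 204 times in all, and the site printed above is an example. A second, shorter cluster of the kind lay on chromosome 2 from 98661902 to 98667644 at Gm10801 and Gm10800. Its 4 dense regions had a median of 60.8% repeated words. Zinc finger gene neighbourhoods on chromosome 4 were in part repeated as well, with 10 dense regions over Zfp981 from 146481965 to 146536703 (median 19.3%), 10 over Zfp978 and C230088H06Rik from 147389991 to 147437494 (31.3%) and 9 at Gm16503 from 147497360 to 147539904 (21.6%). Without WT replicate 2 the rule kept 4, 0 and 5 dense regions in these 3, and without XistΔ/Δ replicate 2 it kept 5, 0 and 6.

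In the 13 clusters of any size with a median above 20%, 100% and 98.4% of the 128 dense regions had a peak in the replicate 2 libraries of WT and XistΔ/Δ, against 32.8% and 35.2% in the replicate 1 libraries. Here too, the consensus rule largely sets the high replicate 2 shares. In the other 349 clusters the replicate 1 shares were 52.1% and 59.0%. The number of copies of these repeats in the mice was not measured.

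Most of the largest clusters outside repeated sequence lay over or beside genes of known function. On chromosome 11 from 69015321 to 69118577, 16 dense regions lay over or within 3 kb of a run of genes. These were Ctc1 (a telomere capping protein), Aurkb (a kinase of mitosis), Borcs6 and Tmem107. Further along lay Vamp2 (a vesicle fusion protein), Per1 (a circadian clock repressor) and Hes7 (a repressor of the segmentation clock), whose start lay just past the last dense region. Snord118, the U8 small nucleolar RNA, and 13 tRNA genes lay in the same stretch. Peaks were present at 10 and 16 dense regions in WT replicates 1 and 2 and at 11 and 16 in XistΔ/Δ replicates 1 and 2, and they summed to 10753, 24116, 11301 and 24460 bp in that order. Here 10 of the 16 were found in all 4 libraries, and the 2 genotypes overlapped. Without WT replicate 2 the rule kept 9 dense regions, and without XistΔ/Δ replicate 2 it kept 10.

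The Ugt1a cluster on chromosome 1, from 88205244 to 88297135, held 21 dense regions. It spans the end of the Ugt1a gene complex with Ugt1a1, the enzyme that conjugates bilirubin, Dnajb3, Mroh2a, Hjurp (the chaperone that loads the centromere histone CENP-A) and Trpm8 (the cold-sensing channel). Peaks stood at 14 and 16 dense regions in WT replicates 1 and 2 but at 19 and 12 in XistΔ/Δ replicates 1 and 2. The summed peak widths were 14758, 20976, 31446 and 13901 bp in that order. The shallower XistΔ/Δ library thus had a peak at the most dense regions and the deeper one at the fewest. The XistΔ/Δ libraries therefore lay on both sides of the WT libraries. The number of copies of this stretch in the mice was not measured. A higher count in replicate 1 was rare. Among the 192 clusters of at least 4 dense regions, replicate 1 exceeded replicate 2 in 3 clusters in XistΔ/Δ and in 4 in WT.

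Tmem267, Ccl28 and Hmgcs1 marked the cluster with the largest difference in called regions between genotypes within both replicate numbers. Ccl28 is a chemokine of mucosal tissues and Hmgcs1 the cytosolic enzyme that makes HMG-CoA for cholesterol synthesis. Its 15 dense regions lay on chromosome 13 from 119609601 to 119690885. Peaks stood at 6 and 5 of them in WT replicates 1 and 2, and at 14 and 12 in XistΔ/Δ replicates 1 and 2. The summed widths were 8846 and 9345 bp in the WT libraries and 17785 and 14500 bp in the XistΔ/Δ libraries, so the genotypes did not overlap, which held for 2 of the 192 clusters of at least 4 dense regions with XistΔ/Δ wider (1.04%) and for 1 with WT wider (0.521%). It was the only 1 of the 192 clusters with at least 4 more dense regions called in XistΔ/Δ within both replicate numbers, and none had 4 fewer. Both dense regions at the Tmem267 end were called at similar widths in all libraries, and the wider of them, from 119612717 to 119617740, had 4990 and 5020 bp in the WT libraries and 4878 and 4751 bp in the XistΔ/Δ libraries. At the other end, the region at the Hmgcs1 start had 644 and 1353 bp in the WT libraries and 626 and 1143 bp in the XistΔ/Δ libraries. The regions called only in XistΔ/Δ lay between these ends. The median share of repeated words was 3.96%, and the number of copies of this stretch in the mice of each genotype was not measured. The cluster rests on the XistΔ/Δ libraries, since the rule found 3 dense regions there without XistΔ/Δ replicate 1, 4 without XistΔ/Δ replicate 2, and 0 when a consensus region needed 3 libraries.

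**Figure D4:**
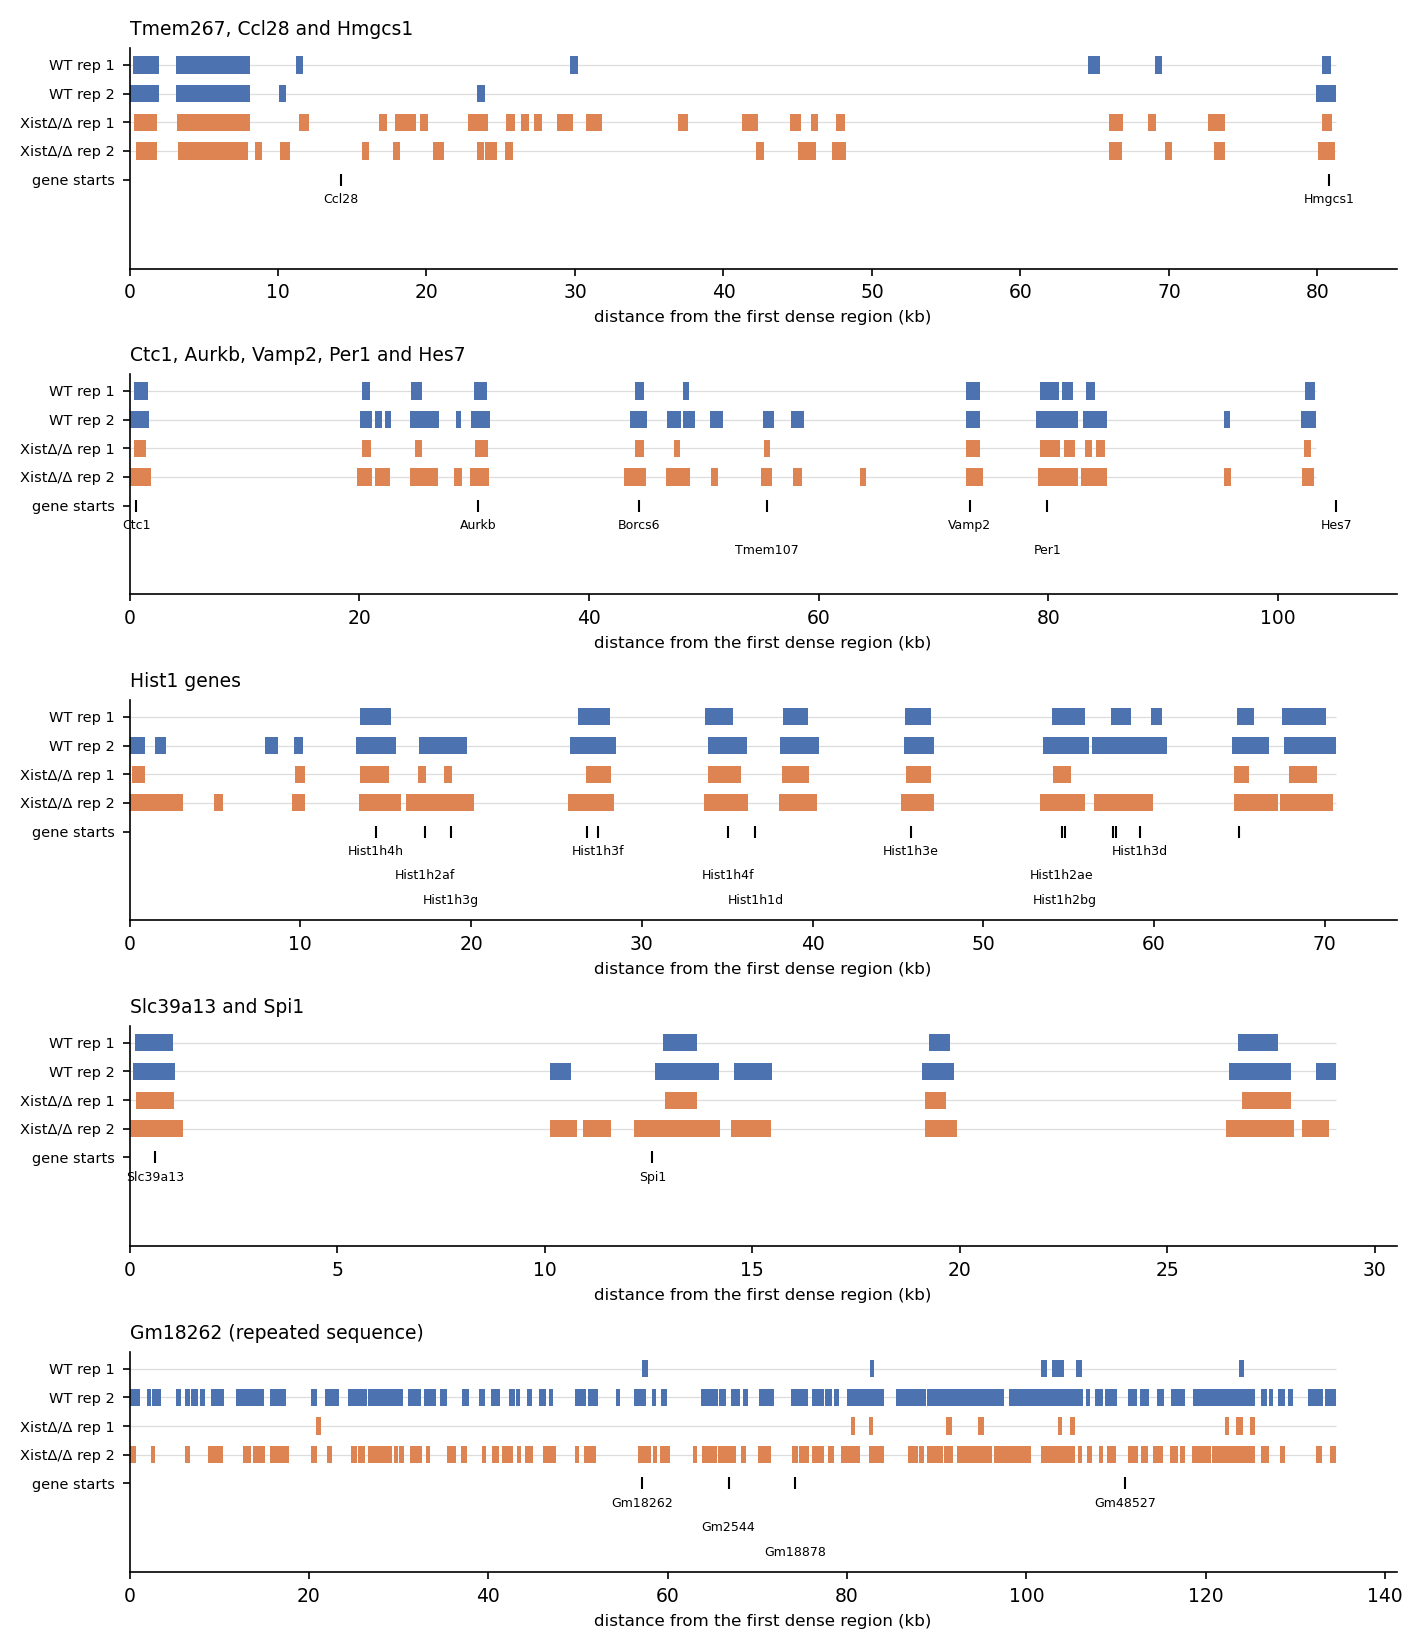
Peaks of each library (bars, WT in blue and XistΔ/Δ in orange) in 5 clusters against the distance from the first dense region (kb), with gene starts as ticks below (not all are named). In the top panel the XistΔ/Δ libraries have peaks at 14 and 12 dense regions and the WT libraries at 6 and 5, and in the bottom panel peaks are dense in the replicate 2 libraries only.

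Histone genes made up several clusters. The Hist1 cluster on chromosome 13 from 23516608 to 23587292 held 12 dense regions at 14 genes of core and linker histones, among them Hist1h4h, Hist1h3e, Hist1h1d and Hist1h4d. Peaks were present at 9 and 12 dense regions in the WT libraries and at 11 and 12 in the XistΔ/Δ libraries. With any single library left out, the rule again gave 12 dense regions there. A second Hist1 cluster on the same chromosome from 23737785 to 23764337, from Hist1h1c to Hist1h1a, had 5 dense regions called in all 4 libraries, and was 1 of 5 clusters of at least 4 for which this held. In the Hist2 cluster on chromosome 3 from 96238037 to 96278552, Hist2h3b carried peaks of 2430, 2706, 2115 and 2720 bp and Hist2h4 peaks of 626, 2830, 1384 and 2733 bp, in the order WT replicates 1 and 2 and XistΔ/Δ replicates 1 and 2. Since histone genes are near-copies of each other, the reads behind some of these peaks are uncertain, and repeated words reached 37.7% in a region of the larger Hist1 cluster.

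In 1 cluster on chromosome 17 from 35821221 to 35897629, all 11 dense regions were TSS-proximal and lay beside Ier3, Flot1, Tubb5 (a beta tubulin), Mdc1 (a mediator of the DNA damage response), Nrm, Ppp1r18, Dhx16, 2310061I04Rik and Atat1. Only 4 of them had a peak in WT replicate 1 and 4 in XistΔ/Δ replicate 1, while all 11 had one in both replicate 2 libraries. The 11 dense regions of chromosome 8 from 84183201 to 84257679, at Nanos3, Zswim4, Mri1 and the Mir23a, Mir27a and Mir24-2 microRNA genes, were called at 8 and 10 in the WT libraries and at 4 and 11 in the XistΔ/Δ libraries. The remaining clusters among the 15 largest lay at Abt1 with 19 tRNA genes on chromosome 13 (10 dense regions), beside Gm23215 on chromosome 16 (10) and at Zfp217 on chromosome 2 (9). Without WT replicate 2 the rule kept 4 dense regions in the Ier3 to Atat1 cluster, 7 in the Nanos3 cluster and 3, 4 and 3 at Abt1, Gm23215 and Zfp217, and without XistΔ/Δ replicate 2 it kept 4, 6, 5, 4 and 2 in the same order.

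Some clusters held no TSS-proximal dense region. There were 13 of them with at least 4 dense regions, against 68 in which every dense region was TSS-proximal and 111 with both. After the Zfp978 stretch, the largest was a stretch of chromosome 1 with no annotated gene over its dense regions, from 86478719 to 86509999 with 5 dense regions, called at 4, 5, 3 and 5 in WT replicates 1 and 2 and XistΔ/Δ replicates 1 and 2. Next, by span, were 3 clusters of 4, on chromosome 2 from 167740498 to 167760603, on chromosome 3 from 105891674 to 105911039 within Adora3 and Tmigd3, and on chromosome 9 from 123923111 to 123942416. All 4 dense regions of each were called in both replicate 2 libraries, and between 1 and 3 in each replicate 1 library.

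Gene families that lie in clusters were met unequally. Of 66 replication-dependent histone genes, 40 (60.6%) had a TSS within 3 kb of a dense region and 57 lay near any autosomal YY1 region. The first by position were Hist2h3c2, Hist2h2aa2, Hist2h2aa1, Hist2h3c1, Hist2h4 and Hist2h3b. Over all 20780 protein-coding genes the dense share was 3.12%, with 48.3% near any YY1 region. Of 39 Hox genes, the body-plan regulators, 8 lay near a YY1 region and 6 of those near a dense one, namely Hoxa3, Hoxa6, Hoxa7, Hoxa9, Hoxb5 and Hoxb4. The Hoxa cluster held 6 dense regions, called at 5 and 6 in the WT libraries and at 6 and 6 in the XistΔ/Δ libraries.

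Transfer RNA genes were chosen as a list after the clusters had been seen. Of 386 nuclear tRNA genes of the RefSeq annotation, 178 lay within 500 bp of an autosomal YY1 region and 57 of a dense one. Conversely, 30 dense regions (2.31%) had a tRNA gene within 500 bp, against 0.632% of other regions, and 20 of the 30 lay in 4 clusters. These were the clusters of Abt1, of Per1, of the larger Hist1 group and of Trim41 and Trim7. Small nucleolar RNA genes gave 29 of 1419 near a dense region (2.04%), among them Snora52, Snord37, Snord59a and Snora9. Only 192 of the 1419 lay near any autosomal YY1 region. Of those, 15.1% were near a dense one, against 6.45% of the protein-coding genes near a YY1 region. Several of the 29 share a dense region beside Snhg1, so they are not independent counts. The genes of the U3 snoRNA, Rnu3b1, Rnu3b3 and Rnu3b4, shared a cluster of 8 dense regions with Tex14 on chromosome 11 from 87422386 to 87463270, called at 0 and 8 in the WT libraries and at 5 and 8 in the XistΔ/Δ libraries, where 20.9% of words (median) were repeated.

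The other lists held few genes near a dense region. Ribosomal protein genes had 7 of 76 (9.21%, above the 3.12% of all protein-coding genes), namely Rpl7a, Rpl35, Rplp2, Rpl23a, Rps2 and Rps18 with the muscle paralog Rpl3l, and 74 of the 76 lay near a YY1 region. Of the genes near a YY1 region, 9.46% of the ribosomal protein genes and 6.45% of all protein-coding genes were near a dense one. Zinc finger (Zfp) genes had 10 of 385 (2.60%), of which Zfp217, Zfp512b, Zfp981, Zfp324, Zfp36 and Zfp553 come first by position. The H2 list, the major histocompatibility genes, had 1 of 34, H2-Ke6, which encodes a dehydrogenase and no antigen-presenting molecule. Olfactory receptor genes, silent in blood, had 0 of 1086 near a dense region and 2 near any YY1 region, and the granule protein genes Mpo, Elane, Prtn3 and Ctsg had 0 of 4 near a dense region and 1 near any.

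Of 20 transcription factor genes of blood progenitors, 16 lay near a YY1 region and 2 (10%), Spi1 and Lyl1, near a dense one. The share over all protein-coding genes was 3.12%. Of the genes near a YY1 region, 12.5% of these factors and 6.45% of all protein-coding genes were near a dense one. With 2 genes, nothing is read from this difference. Spi1 encodes PU.1, the factor that drives myeloid and B cell fates. Its cluster on chromosome 2 from 91069795 to 91098871 held 7 dense regions, with Slc39a13 (a zinc transporter) at its other end. Peaks were called at 4 and 7 of them in the WT libraries and at 4 and 7 in the XistΔ/Δ libraries. The region over the Spi1 start, from 91081959 to 91084011, had peaks of 799 and 1526 bp in the WT libraries and 771 and 2053 bp in the XistΔ/Δ libraries. The region further into the gene, from 91096206 to 91097845, had 968 and 1498 bp in the WT libraries and 1190 and 1640 bp in the XistΔ/Δ libraries. Both were present in every library and overlapped between genotypes, while 3 others were called in the replicate 2 libraries alone.

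Lyl1, a helix-loop-helix factor of blood stem cells, shared a cluster of 5 dense regions on chromosome 8 from 84686025 to 84708615 with Trmt1, Nacc1 and Nfix. Its widest region, from 84702532 to 84708615, had peaks of 1838 and 4913 bp in the WT libraries and 1189 and 6084 bp in the XistΔ/Δ libraries, so both genotypes had the wider peak in replicate 2, and they overlapped.

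The share of autosomal regions that were dense varied between chromosomes. It was highest on chromosome 13 (16.6%, 111 of 670), then on chromosomes 17 (14.2%), 19 (12.4%) and 11 (12.04%), and lowest on chromosome 18 (4.69%). Without regions of more than 20% repeated words, chromosome 13 fell to 9.27% while chromosome 17 stood at 15.0%. Chromosomes 17, 19 and 11 carry 11.1, 11.7 and 13.4 protein-coding genes per Mb and chromosome 18 carries 5.66, but chromosome 7, with 13.9, had a dense share of 10.2%.

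How often dense regions were called is described by genotype. The rule chose these regions by peaks in the same 4 libraries, and replicates 1 and 2 differed widely in depth. The tests below therefore cannot decide whether the genotypes differ. The share with a peak was 73.7% ± 33.1 in the WT libraries and 77.3% ± 29.3 in XistΔ/Δ (SD, n = 2 each), a difference of 3.65 points with a two-sided exact permutation p of 0.667, where 2 against 2 libraries cannot go below 0.333. Within replicate numbers the difference was 6.38 points in replicate 1 and 0.923 in replicate 2. The other autosomal regions differed by 2.85 and 1.05 points. The mean percentile of dense regions was 39.0 ± 8.72 in the WT libraries and 40.6 ± 6.37 in XistΔ/Δ (SD, n = 2 each; exact permutation p = 1), with differences of 3.27 and -0.0572 within replicates 1 and 2. The sign of both differences turned when WT replicate 1 or XistΔ/Δ replicate 2 was left out, to -19.8 and -17.0 points for the share and to -4.56 and -2.90 for the percentile.

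Regions called in both XistΔ/Δ libraries and in neither WT library (KO-specific) numbered 19 among the dense regions (1.46%, 95% Wilson interval 0.938 to 2.27%), against 1.21% of all autosomal regions. The reverse case (WT-specific) numbered 8 (0.615%, 0.312 to 1.21%), against 0.456%. Both shares lay near the background. The XistΔ/Δ lists are longer in both replicate numbers. With the same number of peaks taken from every list, in the order of the list, the counts were 21 and 21. The shares over all autosomal regions were not worked out for such lists, so nothing is read from these counts. Of the 19, 7 lay in the Ccl28 and Hmgcs1 cluster, so 12 remained without it.

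The KO-specific region of highest rank was in an intron of Vav1 on chromosome 17, from 57288895 to 57292355. Vav1 encodes a guanine nucleotide exchange factor of blood cells. It had peaks of 2333 and 3461 bp in XistΔ/Δ replicates 1 and 2, at percentiles of 98.8 and 98.5, and none in either WT library. Its cluster, from 57274875 to 57292355, held 4 dense regions, of which 0 and 3 had a peak in the WT libraries and 4 and 4 in the XistΔ/Δ libraries. The Vav-iCre transgene of the XistΔ/Δ mice carries Vav1 sequence, and whether it includes this stretch is not given in the sources used here, so reads from the transgene and from the gene itself cannot be told apart. The middle 300 bases are shown, with the CpG dinucleotides in capitals (6 in all), and they hold no AANATGGC and ATGGC 2 times counting both strands:
Vav1 intron, chr17:57290475-57290774, plus strand: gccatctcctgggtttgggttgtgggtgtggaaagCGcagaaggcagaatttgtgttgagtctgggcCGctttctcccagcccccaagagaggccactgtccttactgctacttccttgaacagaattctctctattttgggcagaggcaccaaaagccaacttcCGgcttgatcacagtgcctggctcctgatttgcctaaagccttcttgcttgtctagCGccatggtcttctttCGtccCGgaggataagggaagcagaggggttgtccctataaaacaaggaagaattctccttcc

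The next 4 by rank were 3 regions of the Ccl28 and Hmgcs1 cluster and 1 on chromosome 14. The region of chromosome 13 from 119654071 to 119655981, over the end of Ccl28, had peaks of 770 and 1206 bp in XistΔ/Δ replicates 1 and 2. The region from 119675564 to 119676497 had 929 and 910 bp, and that from 119682235 to 119683389, whose nearest coding start is that of Hmgcs1, had 1155 and 705 bp. The region on chromosome 14 from 73397762 to 73399111, which lies 12473 bp from the start of Itm2b, had 791 and 830 bp. All 4 were narrower than the Vav1 peaks in both libraries.

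WT-specific regions had peaks of at most 1295 bp. In an intron of Vps37b (chromosome 5 from 124021429 to 124022723) WT peaks were 501 and 1295 bp wide, beside Maff, a small Maf transcription factor, 678 and 1006 bp, at 22588 bp from the start of Gm16503 627 and 634 bp, and at Gpr146 501 and 628 bp. Those near Naglu, Wdr26 and C130026I21Rik were 501 bp in both WT libraries. The one near C130026I21Rik had 80.1% repeated words.

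Higher-ranked regions, those with a larger percentile in XistΔ/Δ in replicate 1 and also in replicate 2, were 258 of the 1300 (19.8%), against 19.6% of all autosomal regions, and those ranked lower were 188 (14.5%), against 18.7%. Among the 524 dense regions with a peak in every library the shares were 28.8% higher and 24.6% lower, against 24.5% and 26.1% of all such autosomal regions. The difference between the higher and lower shares was not tested. The ranks compare widths between libraries of unequal depth.

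The higher-ranked regions with the largest changes had modest peaks. At Grk2 (chromosome 19 from 4294038 to 4295720), a receptor kinase gene, widths were 501 and 768 bp in the WT libraries and 768 and 1683 bp in the XistΔ/Δ libraries. At Mapk3, which encodes the kinase ERK1, they were 501 and 759 bp in the WT libraries and 764 and 1022 bp in the XistΔ/Δ libraries. At Mroh2a they were 758 and 784 bp in the WT libraries and 1028 and 1084 bp in the XistΔ/Δ libraries. The genotypes did not overlap at Mapk3 and Mroh2a, while at Grk2 the widest WT peak equalled the narrowest XistΔ/Δ peak. Among all autosomal regions with a peak in every library, 1.73% had both XistΔ/Δ widths above both WT widths and 6.46% the reverse, but the regions named were chosen for their change in rank, so nothing is read from their separation. The remaining 2 lay at Gm11735 and within Fam117a.

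In the opposite direction, the region inside Rreb1 (chromosome 13 from 37856571 to 37858667), a zinc finger factor of Ras signalling, had 1302 and 2097 bp in the WT libraries and 501 and 1200 bp in the XistΔ/Δ libraries. Alad, the second enzyme of heme synthesis, had 1405 and 2409 bp in the WT libraries and 710 and 1493 bp in the XistΔ/Δ libraries. Fnbp1 had 769 and 2221 bp in the WT libraries and 501 and 1034 bp in the XistΔ/Δ libraries. Of these 3, the genotypes did not overlap at Rreb1, which the choice by rank favours as well. The other 2 were at Rmnd5b and within Cc2d2b.

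To see whether crowding was found again in libraries that did not choose it, clusters were drawn from each genotype alone, with regions called in both of its libraries. WT alone gave 221 dense regions in 82 clusters. Of these regions, 84.2% had a peak in XistΔ/Δ replicate 1 and 97.7% in XistΔ/Δ replicate 2, while regions of WT that were not dense had 87.6% and 99.2%. XistΔ/Δ alone gave 269 dense regions in 91 clusters, of which 72.1% had a peak in WT replicate 1 and 95.2% in WT replicate 2, against 83.7% and 97.9% of those that were not dense. By the rule itself, 117 of the 221 (52.9%) were dense in XistΔ/Δ also, and 118 of the 269 (43.9%) in WT. Of the clusters, 48 of 82 (58.5%) and 47 of 91 (51.6%) were met again. Single peaks in clusters were thus mostly found again, while the count of neighbours that makes them dense was found again in about as many cases as not.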

How the data were processed

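YY1 ChIP-seq peak lists of 4 Lin− libraries were used. According to the study's methods and the submitters' processing notes, the authors trimmed reads with Trim Galore, aligned them to mm10 with Bowtie2 (2.3.5.1), filtered them with SAMtools (1.10), removed duplicates with Picard (2.0.1) and called peaks with HOMER (4.9.1, the version in those notes). Each library had its own peak calling, per the file headers at a false discovery rate of 0.001, with a minimum distance of 500 bp, a local fold option of 4 and no input library named. The deposited score is 1 for every peak and ranks nothing, so peak width was used. The deeper libraries had more peaks, but depth goes with replicate number and their parts cannot be told apart. The headers number replicates otherwise than the labels, which were followed. A number in the headers' directory names is shared by libraries of the same replicate number, and its meaning is not stated.

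The dense regions and the lists were chosen with earlier results of these data known, and the tRNA list and the limit of 20% repeated words were added afterwards. Merging, counts, exact permutation tests over libraries and Wilson intervals were run in Python 3.11.15 (numpy 2.4.6, pandas 2.3.3, scipy 1.17.1) after a check on simulated data. Genes came from GENCODE M21, sequence and tRNA genes from RefSeq GRCm38. The genes named were those of the 15 largest clusters (values per library for the first 6), the 5 largest without a TSS-proximal region, the KO-specific and WT-specific regions (all up to 10, otherwise the 5 of highest rank), the 5 most changed regions in each direction and up to 6 genes of each list; Mcl1, Slc3a2, Hist2, Tex14 and some others were named after their values were seen. A WT-specific region that the rule would name is not reported here. Another window, number of neighbours, consensus, merging rule, list length, rank, TSS distance and motif, and each library left out, were tried as alternatives.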

Additional observations from a re-analysis of the deposited data

Results flagged for a closer look

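The rule covers autosomes only. On the X chromosome the same rule gave 43 dense regions of 364 consensus regions (11.8%), and 17 of these lay in Firre, the gene of a long noncoding RNA with many repeated units, from 50566132 to 50623519. Most of the Firre regions had a peak in all 4 libraries. Others lay at Elf4 and Flna. These regions were in no comparison of the report and were picked out because they are outside the data it used.

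Inside the clusters, a further 168 merged regions had a peak in 1 library only and so were no consensus regions (of 5467 such autosomal regions). They came from XistΔ/Δ replicate 2 in 94 cases and from WT replicate 2 in 53, the deeper libraries, and from WT replicate 1 in 8 and XistΔ/Δ replicate 1 in 13. They too were picked out as peaks that no comparison used.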

How the results depend on the processing

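The number of dense regions depends on the rule, on the libraries used and on the length of their lists. Against 1300 regions in 362 clusters, a window of 10 kb gave 409 in 126 and of 40 kb 3424 in 1202, 2 neighbours gave 3044 in 932 and 4 neighbours 539 in 130, a consensus of 3 libraries gave 340 in 120 and of 4 libraries 98 in 40, and lists of equal length gave 311 in 108. Leaving out single libraries gave 400 to 1269 dense regions and 131 to 358 clusters, with 421 in 135 without WT replicate 2 and 400 in 131 without XistΔ/Δ replicate 2. Merging peaks up to 500 bp apart kept 943 in 297.

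Leaving out single libraries moved the genotype difference in the share called from -19.8 to 27.1 points and in mean percentile from -4.56 to 7.77. Each such case set 1 library against 2, so replicates 1 and 2, which differ widely in the share called, were no longer balanced between genotypes. The difference was negative without WT replicate 1 (-19.8 and -4.56) and without XistΔ/Δ replicate 2 (-17.0 and -2.90). With a replicate block, the differences of 3.65 and 1.61 had exact sign-flip p-values of 0.5 and 1, where 2 pairs cannot go below 0.5. Same-numbered libraries deviated together across autosomal regions (r = 0.277, 13801 regions, which are not independent), and the file headers give them a shared number, but nothing says what it marks, so they were not treated as pairs.

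KO-specific dense regions were 12 without the Ccl28 and Hmgcs1 cluster, an alternative chosen after seeing the data, as was leaving out regions of repeated sequence. WT-specific ones were 21 with lists of equal length, with no share over all autosomal regions to set beside them. Among dense regions with a peak in all libraries, 28.8% were higher-ranked and 24.6% lower-ranked. For the core ATGGC the share was higher in dense regions, by 1.09 points, against -3.41 points for AANATGGCG and -2.44 points for AANATGGC without repeated sequence, and the cause was not tested. The TSS-proximal difference stayed negative under all alternatives run.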
